A study of Mus musculus with 4 samples.

Results

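TRBV12-1, TRBV12-2 and TRBV26 are 3 variable segments of the mouse T-cell receptor beta chain, named V beta 5.2, V beta 5.1 and V beta 3 in the older nomenclature. Beta-chain contigs were taken where the deposited V segment was exactly one of these names and the contig was called as a cell, of high confidence, full length and productive, and names joined from several segments were left out. The 3 segments had 217, 168 and 69 such contigs, 454 of the 13709 productive TRB contigs in all. Per the labels, the receptors came from pancreatic islets of Tet2KO NOD mice and of NOD mice, a strain that develops autoimmune diabetes spontaneously, with 2 libraries of each genotype. The Tet2KO NOD line carried the Tet2-/- allele, bought on a B6 background and backcrossed to NOD females for over 14 generations, so stretches of B6 genome beside the allele are possible and were not examined. Islets of 4 to 6 mice were pooled per genotype and condition, and the library is the replicate here. An age of 10 to 13 weeks is stated for the mice in one place, but the islet protocol counts those weeks from an event written BTM, and NOD donors for bone marrow transplant are mentioned, so neither age nor transplant status is certain. The contig tables hold receptor sequences only, so a T cell was recognised by its receptor contigs and no other marker gene was measured.

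The V segment encodes the first and second complementarity-determining regions (CDR1 and CDR2), while the third (CDR3) is made at the V-D-J junction. Superantigens, among them those of endogenous mouse mammary tumour viruses, bind the beta chain through its V segment whatever the CDR3, and T cells with the matching V beta are then removed in the thymus. V beta 3 and V beta 5 are textbook examples of such V segments, with the extent of removal differing between mouse strains. A nonproductive rearrangement, out of frame or with a stop codon, makes no receptor and is not exposed to such selection. It is carried along by the second, productive allele of its cell. Here a rearrangement counted as nonproductive where the deposited contig was full length but not flagged productive, and reading frames were not checked.

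All contigs of a member shared 1 V region, identical to the GRCm38 reference over 270 bases for TRBV12-1 and TRBV12-2 and 273 bases for TRBV26. In that build the genes lie on the plus strand of chromosome 6, at 41113550 to 41114067 for TRBV12-1, 41118851 to 41119364 for TRBV12-2 and 41227505 to 41227993 for TRBV26. The CDR1 and CDR2 sequences, read from the deposited contigs, are shown because they are what distinguishes the members from one another. Capitals mark the bases that differ between TRBV12-1 and TRBV12-2, 4 of 15 in CDR1 and 3 of 18 in CDR2.
TRBV12-1 CDR1: tctggacatAGcAAt
TRBV12-2 CDR1: tctggacatCTcTCt
TRBV26 CDR1: aagggacatccagtt
TRBV12-1 CDR2: cattatgaAaaGGtggag
TRBV12-2 CDR2: cattatgaTaaAAtggag
TRBV26 CDR2: tttcagaatcaagaagtt
The name TRBV12-2+TRBV13-2, left out by the rule, was given to 1382 productive contigs, of which 1379 had the CDR1 and CDR2 of TRBV13-2 and 0 those of TRBV12-2.

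The contig tables held 114106599 and 85137263 reads in the Tet2KO NOD libraries and 220516119 and 140478435 in the NOD libraries. They gave 1604 and 1392 cells with 1 TRB and a TRA in Tet2KO NOD, and 5564 and 2475 in NOD. These cells formed 899 and 993 clonotypes in Tet2KO NOD and 3594 and 1693 in NOD, a clonotype being the same V, J and CDR3 nucleotides of both chains. In all, 81 cell barcodes were called in more than 1 library. The libraries with more reads also had more cells, and intervals below cover counting error only.

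The first question was how much of the islet repertoire the members made up in each genotype. They were rare: of 22 TRBV names ranked by mean share of clonotypes, TRBV12-1 was 17th, TRBV12-2 was 19th and TRBV26 was 20th. TRBV12-1 made up 2.34% and 1.01% of clonotypes in Tet2KO NOD, against 1.67% and 1.42% in NOD. The Tet2KO NOD libraries lay on either side of both NOD libraries. TRBV12-2 made up 0.779% and 0.906% of clonotypes in Tet2KO NOD and 0.890% and 0.768% in NOD. TRBV26 made up 0.667% and 1.01% of clonotypes in Tet2KO NOD and 0.584% and 0.768% in NOD. For both segments the genotypes overlapped as well, whereas 25.8% of the 124 TRA and TRB segments tested had genotypes that did not overlap. TRBV26 in NOD 1 was the lowest value of all, at 21 of 3594 clonotypes (Wilson 95% interval 0.382% to 0.892%).

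Together the members averaged 3.35% ± 0.609 of clonotypes in Tet2KO NOD and 3.05% ± 0.135 in NOD (SD, n = 2 each), a difference of 0.302 percentage points (exact permutation test, two-sided p = 1). With 2 libraries a genotype that test cannot go below 0.333. Without Tet2KO NOD 1 the difference turned to -0.128 points. Across all TRA and TRB segments, edgeR's quasi-likelihood test with Benjamini-Hochberg adjustment called 1 of 124, or 0.806%, and that segment was no member. TRBV26 had a log2 fold change of 0.38 (SE 0.48), TRBV12-1 of 0.05 (SE 0.37) and TRBV12-2 of -0.0048 (SE 0.47), each with an edgeR adjusted p of 0.992. The approximate 95% interval for TRBV26, -0.57 to 1.33 on the log2 scale, leaves room for a change of more than 2-fold upward. On simulated counts at this depth the test found 67.2% of segments changed 2-fold. Those segments were drawn at random from all 124, so this is no rate for the members alone.

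**Figure D1:**
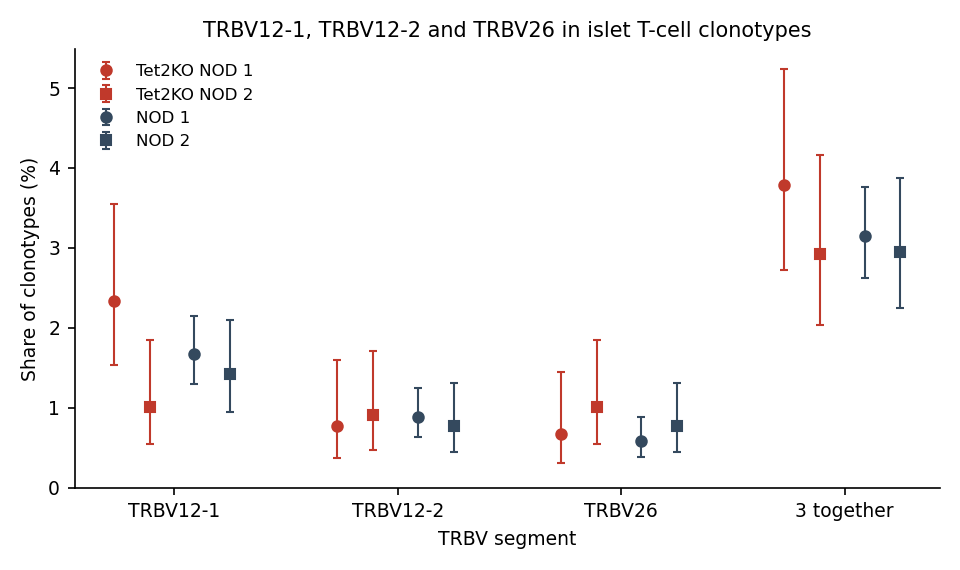
Share of clonotypes (%) with TRBV12-1, TRBV12-2, TRBV26 or any of the 3, one point per library, with Tet2KO NOD in red left of NOD in dark blue and bars giving Wilson 95% intervals. The points of both genotypes overlap for each segment, and the 3 together lie between 2.92% and 3.78%.

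The second question was whether the members were used less in productive than in nonproductive rearrangements. They were: the share among productive rearrangements was below the share among nonproductive ones for all 3 members in each of the 4 libraries. TRBV12-1, the more frequent V beta 5 segment, had 23 and 15 productive rearrangements in Tet2KO NOD beside 3 and 4 nonproductive ones, and 80 and 34 productive in NOD beside 27 and 12 nonproductive. TRBV12-2 had 9 and 10 productive in Tet2KO NOD beside 4 and 3 nonproductive, and 44 and 17 productive in NOD beside 6 and 7 nonproductive. TRBV26 had 6 and 12 productive in Tet2KO NOD beside 3 and 2 nonproductive, and 28 and 15 productive in NOD beside 11 and 4 nonproductive. A rearrangement is counted once here for each V, J and deposited clonotype number in a library.

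Over all libraries this is 30.3 nonproductive rearrangements per 100 productive ones for TRBV12-1, 25 for TRBV12-2 and 32.8 for TRBV26, against 9.34 over all TRBV names. The members together made up 3.43% and 3.06% of productive rearrangements in Tet2KO NOD, against 9.71% and 8.04% of nonproductive ones there. In NOD they made up 3.26% and 3.19% of productive and 10.4% and 11.2% of nonproductive rearrangements. The log2 ratio of the productive to the nonproductive share of the members together was -1.50 and -1.39 in Tet2KO NOD and -1.67 and -1.81 in NOD. Its mean of -1.59 ± 0.182 (SD, n = 4) lay below 0 in 4 of 4 libraries, with a two-sided exact sign-flip permutation p of 0.125, the smallest that 4 libraries allow.

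Tested across TRBV names within libraries, 15 of 21 (71.4%) were called, 8 lower in productive than in nonproductive rearrangements (38.1%) and 7 higher (33.3%), by edgeR's quasi-likelihood test with Benjamini-Hochberg adjustment. All 3 members were among the 8. Their log2 fold changes were -1.80 for TRBV26 (SE 0.40, edgeR adjusted p = 7.2e-05), -1.69 for TRBV12-1 (SE 0.24, edgeR adjusted p = 1.9e-08) and -1.41 for TRBV12-2 (SE 0.37, edgeR adjusted p = 0.00082). The median of the 3 was -1.69, against 0.06 over all 21 names. In this fit the dispersion between libraries was estimated at its lower bound, so the p-values rest on counting error in small numbers. Without Tet2KO NOD 2, 9 names were called in place of 15. The call for TRBV12-2 was lost without Tet2KO NOD 2 (edgeR adjusted p = 0.0779) and when every cell was counted once (edgeR adjusted p = 0.128).

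The other names lower in productive rearrangements were TRBV30 (log2 fold change -2.37), TRBV10 (-1.85), TRBV17 (-1.43), TRBV3 (-0.93) and TRBV31 (-0.56). Higher in productive rearrangements were TRBV2 (1.26), the joined name TRBV12-2+TRBV13-2 (1.25), TRBV13-3 (1.20), TRBV19 (1.09), TRBV13-1 (0.62), TRBV1 (0.56) and TRBV5 (0.46). TRBV16 (V beta 11) and TRBV15 (V beta 12) were comparison segments that other mouse strains delete through I-E. They do not stand for every V segment deleted that way, and whether the members belong with them was not tested. TRBV16 had a log2 fold change of 0.25 (edgeR adjusted p = 0.278) and TRBV15 of -0.42 (edgeR adjusted p = 0.0523). Of the segments that strains with Mls-1a delete, TRBV17 (V beta 9) was lower, TRBV13-3 (V beta 8.1) and TRBV19 (V beta 6) were higher, and TRBV29 (V beta 7) had a log2 fold change of 0.21 (edgeR adjusted p = 0.489). The 3 members therefore shared their direction with TRBV17 but not with TRBV13-3 or TRBV19.

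**Figure D2:**
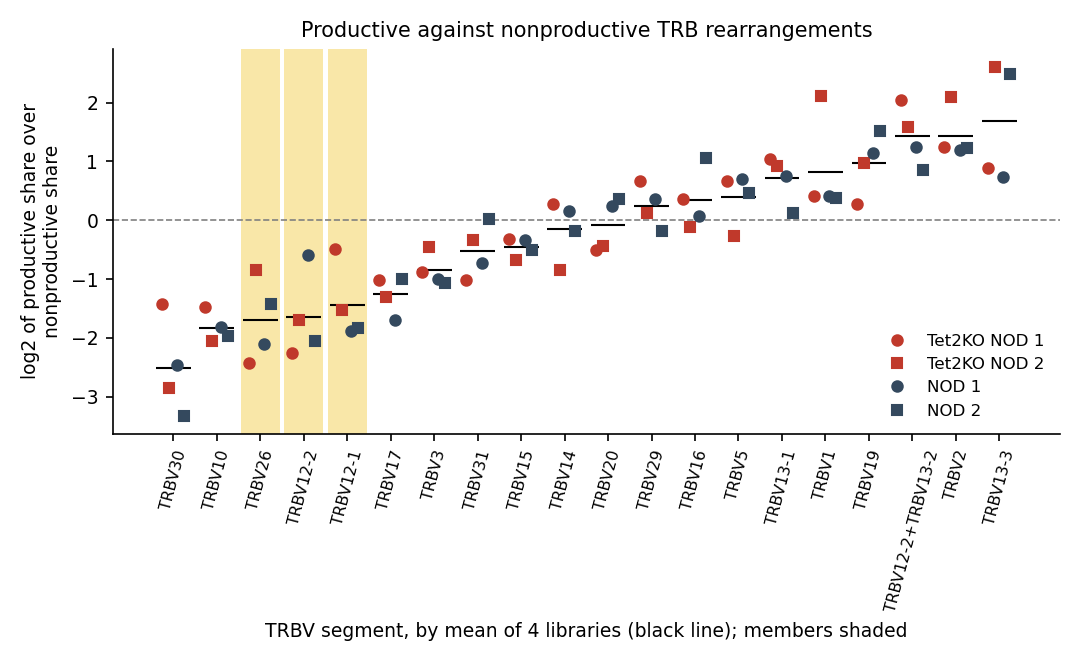
The log2 ratio of the productive share to the nonproductive share of TRB rearrangements for each TRBV name with a value in all 4 libraries, one point per library (Tet2KO NOD red, left, and NOD dark blue), ordered by the mean (black line), with the 3 members shaded. The members lie below 0 in every library, as 8 of the 20 names do (40%).

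Productive transcripts were recovered at greater depth than nonproductive ones, and the part of this in the ratios was not tested. The median productive rearrangement had 8 UMIs for TRBV12-1, 10 for TRBV12-2, 8 for TRBV26 and 9 for the rest, while the median nonproductive one had 2 for each member and for the other TRBV. With contigs of at least 2 UMIs only, the mean log2 ratio of the members together was -1.48. A CDR3 was deposited for 45 of 46 nonproductive TRBV12-1 rearrangements, 12 of 20 of TRBV12-2 and 9 of 20 of TRBV26, against 51.2% for the other TRBV. Keeping only those moved the mean ratio to -2.08, and the call for TRBV26 was then lost (log2 fold change -1.55, edgeR adjusted p = 0.0622). None of the nonproductive member rearrangements, 0 of 86, sat in a clonotype with a productive contig of the same V segment, beside 13 of 760 for the other TRBV. Such cases were rare in the other TRBV too, so the 0 does not set the members apart.

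Between the genotypes, the log2 ratio of the members together averaged -1.45 in Tet2KO NOD and -1.74 in NOD, a difference of 0.291 (exact permutation p = 0.333, the smallest possible). For single members the genotype difference was 0.88 (SE 0.56) for TRBV12-1, -0.80 (SE 0.78) for TRBV12-2 and 0.31 (SE 0.87) for TRBV26, each with an edgeR adjusted p of 0.806. No TRBV was called in this interaction, 0 of 21 (0%), and 0 had an unadjusted p below 0.05 or were called by DESeq2. On simulated counts it found 32% of segments with a 3-fold difference, so smaller genotype differences were mostly not detectable at this depth.

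The third question was which J segments and alpha chains the members were joined to. No J segment of the beta chain differed past the threshold between the members and other TRBV, 0 of 12 TRBJ (0%) by edgeR's quasi-likelihood test, with 1 at an unadjusted edgeR p below 0.05 and 0 called by DESeq2. TRBJ2-7 led with a mean of 22.5% ± 10.2 of member clonotypes, against 20.5% ± 1.15 of the others (SD, n = 4). TRBJ2-5 followed with 16.2% ± 7.80 against 12.3% ± 0.846, then TRBJ2-1 with 11.2% ± 5.71 against 10.2% ± 1.22. TRBJ2-2 had 5.88% and 13.8% of member clonotypes in Tet2KO NOD and 9.73% and 6.00% in NOD, against 4.50% to 5.09% of the others. It was higher in 4 of 4 libraries, with a log2 fold change of 0.84 that missed the threshold (edgeR unadjusted p = 0.0193, adjusted p = 0.231). The members differed among themselves: TRBJ2-5 was in 15 of 61 TRBV12-2 clonotypes (24.6%), 14 of 115 of TRBV12-1 (12.2%) and 4 of 50 of TRBV26 (8%), and TRBJ2-7 was in 14 of 50 of TRBV26 (28.0%). These last differences were not tested.

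Among the alpha chains, TRAV16N was about 3 times as frequent with the members as with other TRBV. It was in 7 of 34 and 3 of 29 member clonotypes in Tet2KO NOD (20.6% and 10.3%), against 4.51% and 6.33% with other TRBV there. In NOD it was in 17 of 113 and 8 of 50 member clonotypes (15.0% and 16%), against 4.85% and 5.54% with other TRBV. The member share was higher in each of the 4 libraries, and no member value reached down to the highest value of the others. TRAV16N was the only name of its family given to these clonotypes, 395 of them, and near-identical copies of TRAV16 segments exist, so which copy was rearranged is uncertain.

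By edgeR's quasi-likelihood test 2 of 102 TRAV and TRAJ segments were called, or 1.96%, both higher with the members: TRAV16N with a log2 fold change of 1.59 (SE 0.31, edgeR adjusted p = 4.6e-05) and TRAV12-1 with 2.25 (SE 0.67, edgeR adjusted p = 0.0465). The dispersion between libraries was again estimated at its lower bound, so these p-values rest on counting error in small numbers. The median log2 fold change over all 102 was -0.13. Both calls were lost with TMM factors and with DESeq2. The median moved by -0.57 with TMM and by -0.64 with DESeq2's size factors. TRAV16N then had 0.94 (edgeR adjusted p = 0.225) and 0.89 (DESeq2 adjusted p = 0.478). The dispersion also rose, to 0.033 with TMM, and DESeq2 is another test, so the part of scaling was not tested. Relative to each median, TRAV16N stood at 1.72, 1.64 with TMM and 1.66 with DESeq2. It was also not called when each cell counted once (log2 fold change 1.22, edgeR adjusted p = 0.727). TRAV12-1 rested on 8 member clonotypes, 7 of them of TRBV12-1, and its call was lost without any one of the 4 libraries (log2 fold change 1.50 without NOD 2 to 3.08 without NOD 1, edgeR adjusted p 0.122 to 0.871).

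Each member contributed to the TRAV16N excess. TRBV12-1 paired with it in 5 of 21 and 1 of 10 clonotypes in Tet2KO NOD and in 7 of 60 and 5 of 24 in NOD. TRBV12-2 paired with it in 1 of 7 and 1 of 9 in Tet2KO NOD and in 6 of 32 and 2 of 13 in NOD. TRBV26 paired with it in 1 of 6 and 1 of 10 in Tet2KO NOD and in 4 of 21 and 1 of 13 in NOD. Over all libraries that is 15.7%, 16.4% and 14.0%, the 3 highest pooled shares among the 20 TRBV names with at least 20 clonotypes. By the mean of the 4 libraries TRBV17, at 15.0%, came after TRBV12-1 (16.6%) and ahead of TRBV12-2 (14.9%) and TRBV26 (13.4%). Pooled, TRBV17 had 13.8% (15 of 109), then TRBV13-3 with 12.7% and TRBV3 with 11.4%, while TRBV5 had 2.96%, TRBV19 2.43% and TRBV20 2.39%.

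**Figure D3:**
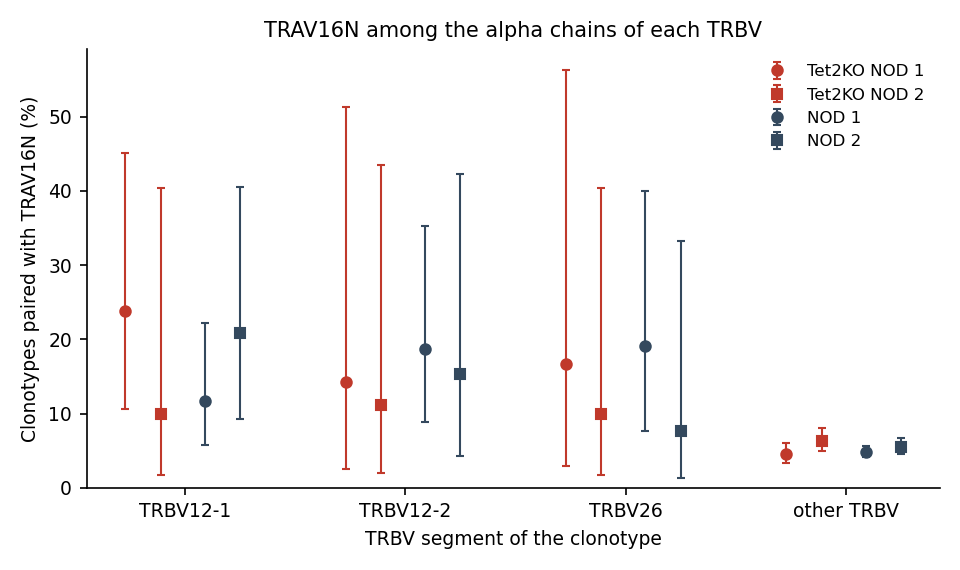
Share of clonotypes (%) whose alpha chain used TRAV16N, for each member and for all other TRBV, one point per library (Tet2KO NOD red, left, and NOD dark blue) with Wilson 95% intervals. The points of the members lie between 7.69% and 23.8%, all above those of the other TRBV at 4.51% to 6.33%.

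The other common alpha segments did not pass the test. TRAJ31 was highest among the TRAJ, with 8.82% and 6.90% of member clonotypes in Tet2KO NOD and 7.08% and 6.00% in NOD, against 3.59% to 4.77% of the others (log2 fold change 0.81, SE 0.44, edgeR adjusted p = 0.608). TRAJ23, TRAJ32 and TRAJ18 had means of 6.07%, 5.81% and 5.77% of member clonotypes and log2 fold changes of 0.32, 0.79 and 0.43. TRAV6N-7, TRAV9-1 and TRAV21-DV12 had means of 5.29%, 4.47% and 4.23% and log2 fold changes between -0.10 and 0.27. TRAV5-4 was in 5 of 226 member clonotypes (2.21%), all of them TRBV12-1, against 6.95% of the others, with a log2 fold change of -1.65 (SE 0.53, edgeR adjusted p = 0.0649). It was called lower with TMM factors (log2 fold change -2.22, edgeR adjusted p = 0.0332). On simulated counts this fit found 20.6% of segments changed 3-fold, so most partners of moderate bias were not detectable at this depth.

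Part of the TRAV16N pairing with TRBV12-1 came from near-identical receptors, which were picked out after the values were seen and carry no test. In 7 clonotypes of 19 cells, TRBV12-1 with the residues Arg-Leu-Gly-Val in the CDR3 was paired with TRAV16N and TRAJ18. Of these, 3 clonotypes were in Tet2KO NOD 1, 0 in Tet2KO NOD 2, 3 in NOD 1 and 1 in NOD 2. The beta CDR3s are shown because they encode the same residues by different nucleotides, the capitals marking the codons of Arg-Leu-Gly-Val.
Tet2KO NOD 1, TRBJ2-7, 5 cells: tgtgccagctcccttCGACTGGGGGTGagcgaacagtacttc
Tet2KO NOD 1, TRBJ2-5, 4 cells: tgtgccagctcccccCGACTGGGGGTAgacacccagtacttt
Tet2KO NOD 1, TRBJ2-5, 2 cells: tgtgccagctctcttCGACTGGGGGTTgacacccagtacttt
NOD 1, TRBJ2-5, 4 cells: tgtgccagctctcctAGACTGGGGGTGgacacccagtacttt
NOD 1, TRBJ2-7, 1 cell: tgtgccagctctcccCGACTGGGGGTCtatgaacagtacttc
NOD 1, TRBJ2-1, 1 cell: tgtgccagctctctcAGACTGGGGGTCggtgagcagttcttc
NOD 2, TRBJ2-7, 2 cells: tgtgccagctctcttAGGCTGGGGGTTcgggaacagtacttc
All 7 nucleotide sequences differ and encode 6 residue sequences, each of 14 residues, with 3 TRBJ segments. The V segment ends after 11 to 15 bases of the CDR3, so the capitals lie in the junction and not in TRBV12-1. Much of the motif is present in the germline D segment Trbd2 (GRCm38 chromosome 6, 41542163 to 41542176), shown with the bases shared by 6 of the 7 sequences in capitals.
Trbd2: ggGACTGGGGGggc
The remaining sequence, from NOD 2, shares a run of 7 of its 14 bases.

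The alpha chains of these 7 clonotypes were also alike. They had 7 nucleotide sequences and 3 residue sequences, each of 16 residues, and capitals mark the 3 codons between the bases common to all of them.
Tet2KO NOD 1, with TRBJ2-7: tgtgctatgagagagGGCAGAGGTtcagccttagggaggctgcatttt
Tet2KO NOD 1, with TRBJ2-5, 4 cells: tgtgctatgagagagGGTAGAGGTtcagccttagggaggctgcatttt
Tet2KO NOD 1, with TRBJ2-5, 2 cells: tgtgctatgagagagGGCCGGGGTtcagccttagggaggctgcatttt
NOD 1, with TRBJ2-5: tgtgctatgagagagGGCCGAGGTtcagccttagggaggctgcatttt
NOD 1, with TRBJ2-7: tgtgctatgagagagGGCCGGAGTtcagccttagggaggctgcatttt
NOD 1, with TRBJ2-1: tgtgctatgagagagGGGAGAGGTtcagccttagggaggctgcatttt
NOD 2, with TRBJ2-7: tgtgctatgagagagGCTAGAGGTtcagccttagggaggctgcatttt
TRAV16N with TRAJ18 was thus in 7 of 115 TRBV12-1 clonotypes (6.09%), 0 of 61 of TRBV12-2, 1 of 50 of TRBV26 and 8 of 6953 of the other TRBV (0.115%). Arg-Leu-Gly-Val occurred in 8 TRBV12-1 clonotypes, 1 of TRBV12-2 and 3 of the other TRBV, and outside TRBV12-1 never with this alpha pair. An alpha chain of the same residues was found once with TRBV5, in 1 cell of NOD 1. Without these 7 clonotypes TRAV16N was still called with the members (log2 fold change 1.31, edgeR adjusted p = 0.0045), while the log2 fold change of TRAJ18 turned to -0.63.

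A further recurrent receptor, likewise picked after the values were seen, joined TRBV12-2 and TRBJ2-5 with TRAV1 and TRAJ32. Its 3 clonotypes held 28 cells, 16 and 11 of them in Tet2KO NOD 1 and 1 in NOD 2. The beta CDR3s share Gly-Gly-Ala, whose codons are in capitals, and 2 TRBV16 clonotypes with the same residues there and the same alpha segments are shown beside them.
Tet2KO NOD 1, TRBV12-2, 16 cells: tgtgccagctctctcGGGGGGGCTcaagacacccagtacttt
Tet2KO NOD 1, TRBV12-2, 11 cells: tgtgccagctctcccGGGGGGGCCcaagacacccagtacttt
NOD 2, TRBV12-2, 1 cell: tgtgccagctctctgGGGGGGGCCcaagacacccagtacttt
NOD 1, TRBV16, 2 cells: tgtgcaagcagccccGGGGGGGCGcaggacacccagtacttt
NOD 2, TRBV16, 1 cell: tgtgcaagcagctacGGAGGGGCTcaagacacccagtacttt
All 5 encode 14 residues, and their alpha chains encode 1 residue sequence of 13 residues. TRAV1 with TRAJ32 was in 3 of 61 TRBV12-2 clonotypes and 3 of 6953 clonotypes of the other TRBV.

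By the nucleotides of both chains, 0 of 226 member clonotypes were found in more than 1 library, beside 34 of 7143 over all TRBV. By those of the beta chain it was 0 of 223, beside 54 of 6936. Identical CDR3 beta residues in more than 1 library were found for 12 of 216 member sequences, and for 5 of 218 when the V segment had to match too. Over all TRBV the counts were 173 of 6690 and 120 of 6804. In receptor classes described for diabetogenic T cells, 1 of the 57 clonotypes with TRAV16N and TRAJ42 was a member (TRBV26, 1 cell), and 2 of the 67 with a TRAV5 segment and TRAJ53 or TRAJ42 were members (TRBV12-1, 2 cells). These shares, 1.75% and 2.99%, stand beside 226 of 7179 for all clonotypes (3.15%).

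The fourth question was how far the member clones had expanded. Clonotypes of 2 or more cells made up 14.7% and 13.8% of member clonotypes in Tet2KO NOD, against 19.1% and 14.8% of those with other TRBV. In NOD they made up 11.5% and 10.0% of member clonotypes, against 13.6% and 13.3% of the others. Members were below the others in 4 of 4 libraries, by a mean of -2.68 ± 1.45 percentage points (SD, n = 4, two-sided exact sign-flip permutation p = 0.125, the smallest possible). After thinning each library to 1392 cells the mean was -0.791 points, with NOD 2 at 1.37 (exact sign-flip permutation p = 0.5), so the order held in 3 of 4 libraries. The genotypes differed in the unthinned value by -0.0434 points (exact permutation p = 1) and in the thinned one by -2.33 points (exact permutation p = 0.333, the smallest possible).

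The 3 members differed in clone size. TRBV26 had 2 expanded clonotypes of 50 (4.00%), with 0 of 6 and 1 of 10 in Tet2KO NOD and 0 of 21 and 1 of 13 in NOD. Taking 3 counts as the limit that 0 allows, 0 of 21 allows a share of up to 14.3% and 0 of 6 up to 50.0%, while the Wilson upper bounds are 15.5% and 39.0%. TRBV12-1 had 16 of 115 (13.9%) and TRBV12-2 had 9 of 61 (14.8%), beside 998 of 6953 (14.4%) for the other TRBV. Cells per clonotype were 1.12 for TRBV26, 1.50 for TRBV12-1 and 2.10 for TRBV12-2, against 1.54 for the others. These totals are led by NOD 1, which holds about as many cells as the rest of the series, and were not tested.

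A few clones set the cell counts of the V beta 5 segments. Members were 4 of the 98 clonotypes of 10 or more cells (4.08%), beside 3.15% of all clonotypes. TRBV12-2 held 3 of the 4 member clonotypes of 10 or more cells: the pair in Tet2KO NOD 1 shown above and the largest member clone, 31 cells in NOD 1 with TRBJ2-5, TRAV12N-2 and TRAJ12. That clone was 42.5% of the TRBV12-2 cells of NOD 1, and the clone of 16 cells was 50.0% of those of Tet2KO NOD 1. In NOD 2 all 13 TRBV12-2 clonotypes were single cells, and in Tet2KO NOD 2 the largest had 2 cells. The largest TRBV12-1 clone had 19 cells in NOD 2, with TRBJ2-4, TRAV12-1 and TRAJ56, and was 37.3% of the TRBV12-1 cells there. The largest TRBV12-1 clones of the other libraries had 5 cells in Tet2KO NOD 1, 2 in Tet2KO NOD 2 and 9 in NOD 1. The largest TRBV26 clones had 4 cells, in Tet2KO NOD 2 (TRBJ1-2, TRAV6-2 and TRAJ34) and in NOD 2 (TRBJ2-3, TRAV16N and TRAJ18), and the other 2 libraries held single cells only. The beta CDR3s of the 2 largest clones and of both 4-cell TRBV26 clones are shown, with the bases that match neither the germline V nor J end in capitals.
NOD 1, TRBV12-2, 31 cells: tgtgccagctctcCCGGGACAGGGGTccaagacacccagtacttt
NOD 2, TRBV12-1, 19 cells: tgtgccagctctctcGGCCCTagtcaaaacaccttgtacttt
Tet2KO NOD 2, TRBV26, 4 cells: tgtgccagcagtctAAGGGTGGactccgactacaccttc
NOD 2, TRBV26, 4 cells: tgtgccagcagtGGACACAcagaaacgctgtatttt
The capitals run over 13, 6, 8 and 7 bases.

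**Figure D4:**
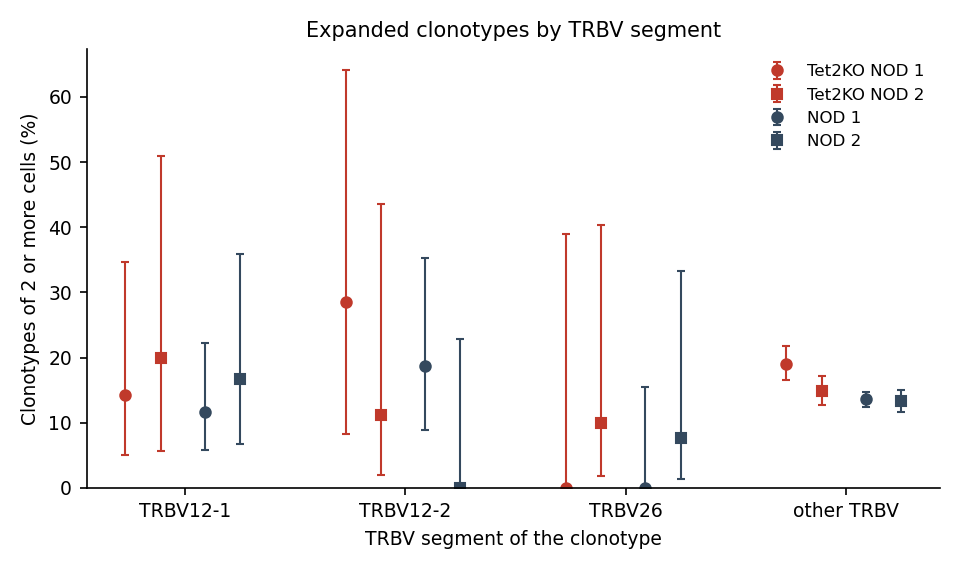
Share of clonotypes (%) with 2 or more cells for each member and for all other TRBV, one point per library (Tet2KO NOD red, left, and NOD dark blue) with Wilson 95% intervals. TRBV26 lies between 0% and 10.0%, and the wide bars of the members reflect 6 to 60 clonotypes each, against 865 to 3481 for the others.

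The length of the CDR3 beta had no common direction across libraries for the members as a group. The mean length of member clonotypes minus that of the others was 0.694 and -0.380 residues in Tet2KO NOD and 0.0760 and -0.366 in NOD, a mean of 0.0061 ± 0.505 (SD, n = 4, exact sign-flip permutation p = 1). TRBV12-1 and TRBV26 lay on opposite sides of the other TRBV, which was not tested. TRBV12-1 averaged 14.8 and 14.2 residues in Tet2KO NOD and 14.3 and 14.1 in NOD, above the 13.9 and 14.0 of other TRBV in Tet2KO NOD and the 14.0 and 14.0 in NOD. TRBV26 averaged 14.3 and 12.9 residues in Tet2KO NOD and 13.5 and 12.8 in NOD, below the others in 3 of 4 libraries. TRBV12-2 averaged 14.3 and 13.9 in Tet2KO NOD and 14.0 and 13.7 in NOD.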

How the data were processed

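Each contig table held counts of reads and UMIs (unique molecular identifiers) for every assembled contig, with its segments, CDR3 and flags, as deposited by the authors, per the file headers. Contigs and cell calls came from Cell Ranger 7.0.1 with GRCm38 (mm10), per the submitters' processing notes. Which V(D)J segment set it used was not stated there.

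For clonotypes, cells with over 1 productive TRB were left out, and the TRA with the most UMIs was used. Rearrangements were counted in called cells with a deposited clonotype number, with such cells kept and no TRA required. Segment counts were numbers of clonotypes, or of rearrangements for productive against nonproductive use. They were tested with edgeR 4.0.16 (quasi-likelihood, R 4.3.3) with library totals as sizes, library as a block for comparisons within libraries, and Benjamini-Hochberg adjustment over all segments kept (10 clonotypes in 2 libraries, or a total of 20). Single values used exact two-sided permutation tests over libraries. Standard errors were derived from the F statistic and are approximate, and some are smaller than their p-values imply. DESeq2 1.42.0, TMM factors and other choices were alternatives. The fits were tested on simulated data.

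Nothing in the labels ties a library to single mice, so the replicates are 4 pools. The permutation tests took these pools as units, and with 4 of them their p-values take few values and do not measure the size of the spread. Dispersion sat at its lower bound in the main fits of productive use, its genotype difference and alpha partners. Their edgeR p-values therefore rest mainly on counting error. The members, comparison lists and named-segment rule (3 members, segments passing a test, the 4 commonest TRBJ, TRAV and TRAJ, the largest clone of each member in each library) were chosen with earlier results of these data known. Whether set numbers pair the libraries was not settled. Deviations of same-numbered libraries from their genotype means correlated at -0.167 over 124 segments. With 2 libraries a genotype these deviations mirror each other, so the correlation cannot decide it. In the genotype fit the dispersion was 0.0023 without a block, 9.8e-05 with set numbers as a block and 0.0047 with those numbers crossed.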

Additional observations from a re-analysis of the deposited data

Results flagged for a closer look

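One signal lay outside the rule for the members. Contigs given the name TRBV26 but no J segment made up 26.3% and 25.9% of all contigs in the Tet2KO NOD libraries (mean 26.1%), against 1.81% and 7.68% in the NOD libraries (mean 4.75%). They numbered 3530 and 3402 in Tet2KO NOD and 552 and 1133 in NOD, and 0 were in called cells in any library. Of the 8617, 0 were full length and 0 had a deposited CDR1, so whether they are TRBV26 transcripts was not tested. They enter no value given for TRBV26, and the difference between genotypes was not tested.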

How the results depend on the processing

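With 2 libraries a genotype and 29 to 113 member clonotypes in a library, signs of values near 0 moved with most choices, and none of the values whose sign changed had passed a test. The members together stayed below 0 in productive against nonproductive use under all 10 alternatives (log2 ratio -2.08 to -1.43), and each member did too. The causes of the changes below were not tested. Alternatives by UMI number, deposited CDR3, cells with 1 productive TRB, crossed pairing and leaving out the recurrent receptors were chosen after seeing the data.

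Segments called between genotypes numbered 1, and 0 with DESeq2, without the filter, with each cell counted once, with clonotypes by TRB alone and under a replicate block by set number, and 0 to 1 when a library was left out. Under the replicate block TRBV12-2 had a log2 fold change of 0.012, and 0 segments were called with the block's numbers crossed (TRBV12-2 at 0.023). The block changed no call of a member. TRBV12-2 was also above 0 with DESeq2 (0.0082), with cells of over 1 TRB kept (0.045) and with each cell counted once (0.53), where TRBV12-1 was at -0.12 with cells of over 1 TRB kept and -0.37 with each cell counted once. Leaving out a library gave -0.65 to 0.56 for TRBV12-1, -0.13 to 0.092 for TRBV12-2 (only the Tet2KO NOD libraries, since without a NOD library it missed the filter) and -0.128 to 0.733 percentage points for the members together.

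In productive against nonproductive use 15 names were called, 9 with each cell counted once and 9 to 15 when a library was left out. TRBV12-2 lost its call with each cell counted once (-1.11) and had -2.00 to -1.16 when a library was left out. TRBV26 lost its call with deposited CDR3s only (-1.55). The genotype difference in it turned to -0.0470 for the members together and -0.56 for TRBV26 with each cell counted once, and to 0.12 for TRBV12-2 where nonproductive contigs needed no full length. Leaving out a library gave it -1.40 to 0.058 for TRBV12-2 and -0.53 to 1.04 for TRBV26.

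Among J partners TRBJ2-7 turned to -0.033 with TMM, -0.031 with cells of over 1 TRB kept and -0.38 with each cell counted once, where TRBJ2-1 was at -0.14. Leaving out a library gave -0.37 to 0.39 for TRBJ2-7 and -0.14 to 0.51 for TRBJ2-1. Among alpha partners 2 segments were called, 0 with DESeq2 or each cell counted once, 1 with TMM, which was TRAV5-4 and neither of the 2, and 1, TRAV16N, without any single library. DESeq2 gave -0.60 for TRAV9-1, -0.31 for TRAV21-DV12, -0.33 for TRAJ23 and -0.22 for TRAJ18, and TMM gave -0.55, -0.31, -0.30 and -0.19 for the same segments. TRAV9-1 was at -0.74 with each cell counted once, and TRAJ18 at -0.63 without the recurrent TRBV12-1 receptors. Leaving out a library gave -0.22 to 0.017 for TRAV6N-7, -0.30 to 0.22 for TRAV9-1 and -0.23 to 0.53 for TRAV21-DV12.

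The genotype difference in expanded share turned to 0.456 points with clonotypes by TRB alone, was -2.33 after thinning and -2.09 with cells of over 1 TRB kept, and was -1.71 to 1.62 when a library was left out. The CDR3 length difference was -0.223 to 0.135 residues when a library was left out. Its genotype difference was -0.0678 with each cell counted once and -0.235 to 0.839 when a library was left out.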

Other observations

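For 3 beta chains of the members, the same TRB nucleotides occurred with 2 alpha chains within a library: a TRBV12-1 chain of 6 cells and a TRBV12-2 chain of 12 cells in Tet2KO NOD 1, and a TRBV12-1 chain of 20 cells in NOD 2.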
